A study of Mus musculus with 45 samples.

Results

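Cxcl9, Cxcl10 and Cxcl11 are the genes of the 3 chemokines that bind the receptor CXCR3. They were chosen by gene name, not by a measured value, though with earlier results of these data known. They are 3 of 23594 gene rows in the deposited table of TPM, a measure of transcript level per length and library. All 3 passed the filter for testing, which asked for at least 5 TPM in at least 2 libraries and kept 8937 genes. Cxcl11 passed only through libraries taken 2h and 6h after lipopolysaccharide (LPS) in which it was high.

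CXCR3 sits mainly on activated T cells and natural killer cells, and its ligands draw these cells into inflamed tissue. All 3 genes respond to interferons. In textbook accounts Cxcl9 depends mostly on interferon-gamma, whereas Cxcl10 is also driven by type I interferon and by NF-kB downstream of Toll-like receptors such as TLR4, the receptor for LPS. The C57BL/6 genome carries a Cxcl11 allele that does not make a full-length protein, so Cxcl11 is followed here as a transcript only.

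The libraries were made by a low-input method of the Smart-seq2 kind from 3 kinds of lung cell of C57BL/6J mice, purified by flow sorting: inflammatory monocytes (iMo), macrophages of the lung interstitium (labelled interstitial macrophages, IM) and macrophages of the air spaces (alveolar macrophages, AM). No genotype other than the strain is given. The groups used were each cell type at 0h, before LPS, and at 2h, 6h and 20h after intraperitoneal (ip) LPS. Sample labels give 20h where the design text of the series has 22h, and the labels were followed. The groups hold 27 of the 45 libraries, 8 at 0h and 19 after ip LPS, in 12 of 21 groups. Every IM and iMo group had 2 libraries, and AM had 4 libraries before LPS, 2 after 2h, 3 after 6h and 2 after 20h. The 18 libraries after intranasal LPS were not used, because row names and values did not match there: across genes their correlation with the other libraries was 0.01 to 0.025, and the median of the actin gene Actb was 0 TPM against 3721.3 TPM.

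The labels do not say whether replicates came from separate mice, so p-values measure the spread between these libraries. TPM keeps no read depth, and column sums ran from 331473 to 551635 TPM, with 4.33 to 33.32% taken by the ribosomal RNA precursor Rn45s. Library titles end in a letter and a code, and libraries are named here by these. All IM and iMo libraries of 0h carry 1 code (A171227 and B171227), and all ip libraries carry another (A161219 and B161219, called code Z here) or a code without a letter (written N160623). In IM and iMo, code and ip LPS therefore cannot be told apart, except in a fit with the code as a covariate, which rests on N160623, 1 of the 4 AM libraries of 0h.

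Marker genes were read before the ligands. The summed TPM of 11 alveolar macrophage markers was 1606.0 to 5429.9 in AM libraries and at most 269 elsewhere. Inflammatory monocytes carried 8 classical monocyte markers at a summed 2502.5 to 13243.5 TPM. The IM libraries went partly against their label: 10 neutrophil markers summed to 11175.8 to 56843.7 TPM in them, above their own sum of 11 interstitial macrophage markers in each group, which was 6230.7 to 7738.3 TPM at 0h and 429 to 1162.9 TPM at 2h. The classical monocyte markers in IM summed to 3452.2 to 6432.7 TPM at 0h, 5516.1 to 9631.1 TPM at 2h and 3756.6 to 9330.4 TPM at 6h. At 20h they summed to 3279.8 to 3646.2 TPM. After LPS these sums were also above the interstitial macrophage sum of the same group, which was 483 to 556 TPM at 6h and 2040.5 to 2218.7 TPM at 20h. Values of IM below are therefore values of the libraries labelled IM. Neutrophil sums in iMo were 336 to 673 TPM at 2h and 135 to 216 TPM at 0h, and Ngp was at 0 in iMo at 0h. The AM library A161219 at 20h stood apart with an interstitial macrophage sum of 3913.5 TPM, against 205 TPM in the other library of that group. In sorted bulk samples, fewer cells of a type and less RNA per cell cannot be told apart.

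The 3 genes are neighbours on the minus strand of chromosome 5 in GRCm38 (mm10). In the GENCODE M21 annotation Cxcl9 spans chr5:92321347-92328079, Cxcl10 chr5:92346638-92348889 and Cxcl11 chr5:92359544-92365485. The gene starts of Cxcl9 and Cxcl10 lie 20.8 kb apart and those of Cxcl10 and Cxcl11 16.6 kb apart. GENCODE lists Cxcl11 as a polymorphic pseudogene and RefSeq as a transcribed pseudogene. Art3, a protein-coding gene on the plus strand, overlaps both Cxcl10 and Cxcl11, and the pseudogene Gm2673 overlaps Cxcl11. Strand is not given in the sources used here, so reads of overlapping genes could not be separated. Art3 itself reached at most 15.6 TPM, in IM 2h A161219.

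The promoters are shown because Cxcl9 and Cxcl10 differed widely in the size of their response. They are the 250 bases before each start, from the RefSeq table for GRCm38.p6, which had entries for Cxcl9 (chr5:92328080-92328329, minus strand) and Cxcl10 (chr5:92348890-92349139, minus strand). Capitals mark matches to an interferon-stimulated response element (ISRE, searched as GAAANNGAAA) or to the kappa-B consensus of NF-kB.
Cxcl9: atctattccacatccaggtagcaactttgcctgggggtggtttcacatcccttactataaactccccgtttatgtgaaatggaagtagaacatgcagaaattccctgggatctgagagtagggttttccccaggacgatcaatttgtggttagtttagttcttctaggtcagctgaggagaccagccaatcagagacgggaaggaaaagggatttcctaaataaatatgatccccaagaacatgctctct
Cxcl10: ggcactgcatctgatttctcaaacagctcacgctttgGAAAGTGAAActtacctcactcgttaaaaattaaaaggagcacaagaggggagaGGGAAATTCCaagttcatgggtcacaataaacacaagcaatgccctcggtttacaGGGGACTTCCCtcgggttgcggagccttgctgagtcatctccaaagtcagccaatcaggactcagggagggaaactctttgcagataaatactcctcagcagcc
The Cxcl10 window holds 1 ISRE match, at -213 to -204 counted from the gene start. It also holds kappa-B matches at -159 to -150, -104 to -95 and -103 to -94, and the last 2 overlap. The Cxcl9 window has no match to either, nor to the gamma-activated site TTCNNNGAA, which was also absent from the Cxcl10 window. On both strands, the ISRE pattern occurs in 2.98% of 32536 promoter windows of this length, the gamma-activated site in 7.04% and the kappa-B consensus in 7.28%. A match is a description of the letters and no evidence of binding. A window without a match can still hold sites whose letters differ from these patterns, so the absence of matches before Cxcl9 is no evidence that it lacks such elements.

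Cxcl10 was by far the most abundant of the 3 transcripts after LPS. In iMo it was 3861.2 and 8794.7 TPM at 2h, against 6.16 TPM (A171227) and 102 TPM (B171227) at 0h. In IM it was 11051.5 and 4274.2 TPM at 2h, against 6.95 TPM (A171227) and 68.0 TPM (B171227) at 0h. In AM it was 39.8 and 49.2 TPM at 2h, against 6.08, 3.64, 3.62 and 0.684 TPM at 0h. In all 3 cell types the 2h libraries lay above every 0h library of the same cell type, but the AM libraries at 2h stayed below the 0h library B171227 of both IM and iMo.

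At 6h Cxcl10 was 612 and 816 TPM in iMo, 1118.3 and 227 TPM in IM, and 44.2, 40.6 and 3.94 TPM in AM. At 20h it was 118 and 65.4 TPM in iMo, 89.2 and 109 TPM in IM, and 3.23 and 1.36 TPM in AM. The third AM library at 6h, N160623, was as low as AM at 0h, and the AM libraries at 20h also fell within the 0h range. In iMo the 20h and 0h libraries overlapped. In IM both 20h libraries lay above both 0h libraries, but this difference did not pass the test given below.

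Cxcl11 was nearly silent before LPS. It was 53.4 and 122 TPM at 2h in iMo, against 0.383 and 0.276 TPM at 0h. In IM it was 161 and 78.1 TPM at 2h, against 0.475 and 0.366 TPM at 0h. In AM it reached 2.04 and 0.944 TPM at 2h, against 0 TPM in 3 libraries and 0.156 TPM in the other at 0h. The iMo and IM values at 2h stood far above all other groups, and the AM values at 2h lay above those of 0h in every cell type. By 6h Cxcl11 was 3.69 and 8.73 TPM in iMo, 15.3 and 1.94 TPM in IM, and 0.336 to 0.668 TPM in AM. By 20h it was listed at 0 in both iMo libraries, at 0.275 and 1.44 TPM in IM, and at 0.138 and 0.072 TPM in AM.

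Cxcl9 had the smallest difference of the 3 at 2h in each cell type. It was 11.7 and 17.0 TPM at 2h in iMo, against 1.69 and 6.24 TPM at 0h. In IM it was 29.7 and 11.7 TPM at 2h, against 3.94 and 9.5 TPM at 0h. In AM it was 1.53 and 2.05 TPM at 2h, against 0.603 to 2.15 TPM at 0h. The 2h libraries did not overlap with 0h in iMo or IM and lay within the 0h range in AM. At 6h Cxcl9 was 8.15 and 6.49 TPM in iMo, 18.0 and 3.83 TPM in IM, and 3.52, 3.69 and 0.793 TPM in AM. At 20h it was 1.41 and 1.97 TPM in iMo, 1.97 and 2.12 TPM in IM, and 0.761 and 0.792 TPM in AM. Both IM libraries at 20h were thus below both IM libraries at 0h, but this difference did not pass the test given below.

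**Figure D1:**
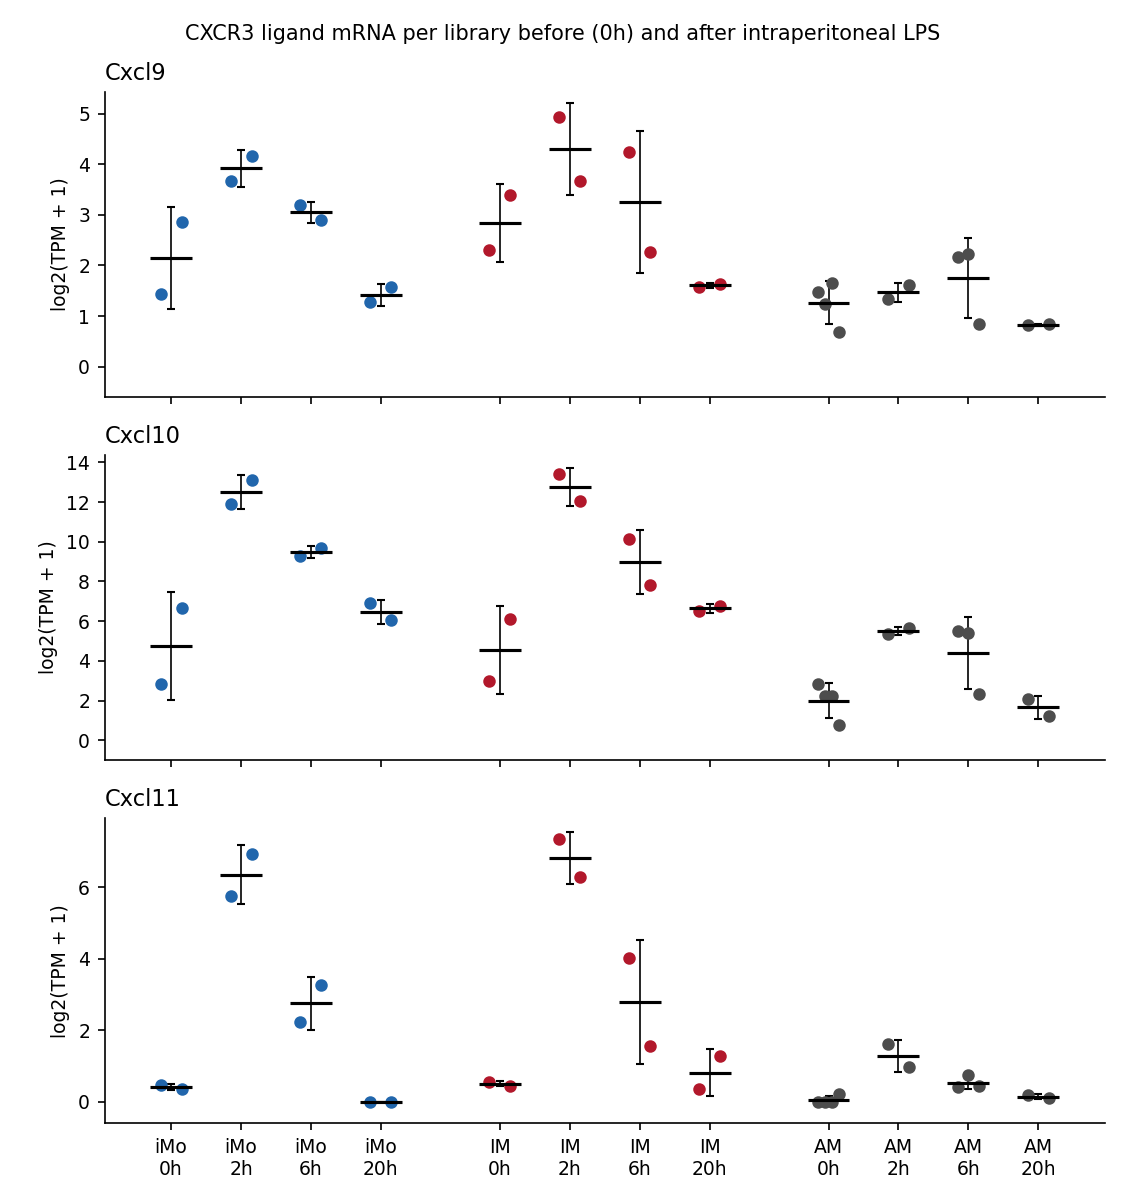
Levels of Cxcl9, Cxcl10 and Cxcl11 as log2(TPM + 1), 1 point per library, in iMo, IM and AM at 0h and at 2h, 6h and 20h after ip LPS; bars are group means and whiskers are SD (n = 2, except AM with 4, 2, 3 and 2). Cxcl10 and Cxcl11 peak at 2h in iMo and IM, and the axis of each gene has its own range.

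Each response sets the 3 later times against the same 0h libraries. Responses were tested on log2(TPM + 1), on which a fold change understates that of a low gene, with 1 limma model over the 27 libraries and Benjamini-Hochberg adjustment over 8937 genes. All differences below are on this log2 scale. At 2h against 0h, all 3 ligands were called higher in iMo (adjusted p under 0.05), where 8.41% of all genes were, and all 3 in IM, where 7.99% were. Cxcl10 rose in iMo by 7.75 (SE 1.09, adjusted p 1.57e-05) and in IM by 8.20 (SE 1.09, adjusted p 4.06e-06). By size of the log2 fold change at 2h, Cxcl10 ranked 5 of 8937 genes in iMo and 2 in IM. Cxcl11 rose by 5.94 in iMo (SE 0.55, adjusted p 4.11e-08) and by 6.32 in IM (SE 0.55, adjusted p 2.25e-08). It was in the tested set only through its iMo and IM libraries of 2h and 6h. Its calls here and below, and the counts that include it, are not free of that selection. Cxcl9 rose by 1.78 in iMo (SE 0.57, adjusted p 0.0208) and by 1.45 in IM (SE 0.57, adjusted p 0.0398). The median of all genes at 2h was -0.42 in iMo and -0.79 in IM. Scaling moved the background: 24% of all genes were called lower in iMo and 40.8% in IM, whereas quantile normalization gave 16.5% higher and 19.7% lower in iMo, and 19.6% higher and 23.2% lower in IM.

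The Cxcl10 and Cxcl11 calls at 2h in iMo and IM held with any 1 library left out. The Cxcl10 value ran from 5.83 without iMo 0h A171227 to 9.67 without iMo 0h B171227, and in IM from 6.64 without IM 0h A171227 to 9.76 without IM 0h B171227. With the title code as a covariate Cxcl10 at 2h was 7.84 in iMo and 9.07 in IM, and Cxcl11 was 4.91 and 5.70, all 4 still called. The Cxcl9 calls were less firm. In iMo Cxcl9 lost its call without iMo 0h A171227 (1.06) or iMo 2h B161219 (1.52), in IM without IM 0h A171227 (0.91) or IM 2h A161219 (0.82), and in both with the title code as a covariate (1.66 in iMo and 1.78 in IM). In IM the adjusted p of Cxcl9 was also 0.0886 with 0.1 TPM added, 0.0928 with no filter and 0.0821 with weights per library.

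Other marker sums moved with time in the same libraries. In IM, 9 endothelial markers summed to 9.23 to 16.7 TPM at 2h, against 533 to 716 TPM at 0h, 8 lung epithelial markers to 19.4 to 58.9 TPM, against 347 to 704 TPM, and 10 lymphocyte markers to 14.3 to 32.6 TPM, against 123 to 139 TPM. The neutrophil sum in IM was 19758.3 to 22409.5 TPM at 2h, against 11175.8 to 22483.5 TPM at 0h, with Camp at 0 in both libraries at 0h. In iMo the classical monocyte sum was 8159.3 to 11926.4 TPM at 2h, against 8880.1 to 13243.5 TPM at 0h, so these ranges overlapped. The neutrophil sum in iMo, 336 to 673 TPM at 2h against 135 to 216 TPM at 0h, was higher. In iMo the lung epithelial sum was 19.3 to 22.7 TPM at 2h, against 132 to 173 TPM at 0h, the interstitial macrophage sum 639 to 1111.7 TPM, against 1328.7 to 1380.7 TPM, and the lymphocyte sum 16.3 to 33.2 TPM, against 37.0 to 52.4 TPM. The part of the marker shifts in the ligand values was not tested.

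At 6h against 0h, 2 of 3 ligands were called higher in iMo (5.95% of all genes) and 2 of 3 in IM (4.63%). Cxcl10 was up by 4.71 in iMo (SE 1.09, adjusted p 0.00258) and by 4.43 in IM (SE 1.09, adjusted p 0.00474). Cxcl11 was up by 2.35 in iMo (SE 0.55, adjusted p 0.00275) and by 2.29 in IM (SE 0.55, adjusted p 0.00386). Cxcl9 did not pass, with 0.91 in iMo (adjusted p 0.24) and 0.41 in IM (adjusted p 0.617). With quantile normalization 14.1% of all genes were higher in iMo and 14.2% in IM. Some of these calls rested on single libraries. Cxcl10 lost its call in iMo without iMo 0h A171227 (2.78), and in IM without IM 0h A171227 (2.87) or IM 6h A161219 (3.28). Cxcl11 lost its call in iMo without iMo 6h B161219 (1.82) and in IM without IM 6h A161219 (1.05). With the title code as a covariate, Cxcl11 was 1.31 in iMo and 1.66 in IM, Cxcl10 was 4.80 in iMo, and none of these was called, whereas Cxcl10 in IM was 5.31 and called. In iMo the neutrophil sum was 1753 to 3059.3 TPM at 6h, against 135 to 216 TPM at 0h, and the interstitial macrophage sum 212 to 258 TPM, against 1328.7 to 1380.7 TPM. In IM the interstitial macrophage sum was 483 to 556 TPM at 6h, against 6230.7 to 7738.3 TPM at 0h. The part of these shifts in the 6h values was not tested.

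At 20h against 0h none of the 3 was called in iMo (22.2% of all genes, either direction) or in IM (12.4%) by limma, and at an unadjusted p under 0.05 the counts were 0 and 1. Cxcl10 was 1.71 above 0h in iMo (adjusted p 0.269) and 2.09 in IM (adjusted p 0.238). Without the pair of B171227 libraries at 0h, whose Cxcl10 was high, it was 3.63 in iMo and 3.65 in IM, in a fit added after the values were seen. Leaving out high 0h values could only raise the difference, and 1 library of 0h was left in each cell type. That fit therefore cannot show a rise at 20h. Cxcl9 was -0.72 in iMo and -1.24 in IM, and Cxcl11 was -0.41 in iMo and 0.31 in IM.

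In AM none of the 3 ligands was called at 2h (0.134% of all genes in either direction), 6h (1.3%) or 20h (0.112%). At an unadjusted p under 0.05, 2 of 3 passed at 2h, 1 at 6h and 0 at 20h. Cxcl10 at 2h was 3.50 above 0h in AM (SE 0.94, adjusted p 0.25), which was the third largest log2 fold change of the 8937 genes. It was 2.39 at 6h (SE 0.83, adjusted p 0.238) and -0.34 at 20h. Cxcl11 was 1.23 at 2h and Cxcl9 0.21. Fitted on the AM libraries of 2h and 0h alone, the 2h difference of Cxcl10 had an adjusted p of 0.0139. Leaving out AM 6h N160623 made the 6h difference of Cxcl10 3.44 with adjusted p 0.0447. In the AM libraries named N160623, 1 at each time, Cxcl10 was 0.684, 49.2, 3.94 and 1.36 TPM at 0h, 2h, 6h and 20h. The classical monocyte sum in AM was 44.4 to 56.7 TPM at 2h and 63.7, 198 and 356 TPM at 6h, where N160623 was the lowest, against 6.72 to 23.7 TPM at 0h. The neutrophil sum in AM was 112 to 286 TPM at 2h and 375 to 442 TPM at 6h, against 24.7 to 83.2 TPM at 0h. In that sum N160623 was the highest at 2h and at 6h. The part of these transcripts in the AM values was not tested. Without AM 20h A161219, which carried the interstitial macrophage markers, Cxcl10 at 20h was -0.76, Cxcl9 -0.42 and Cxcl11 0.05.

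All times were also tested together. The moderated F test of any response in iMo had an adjusted p of 3.48e-05 for Cxcl10, 2.81e-08 for Cxcl11 and 0.00595 for Cxcl9, and passed for 45.6% of all genes. In IM the adjusted p was 1.86e-05 for Cxcl10, 4.06e-08 for Cxcl11 and 0.00392 for Cxcl9, with 52.4% of all genes passing. In AM it was 0.117 for Cxcl10, 0.878 for Cxcl11 and 0.988 for Cxcl9, with 0.806% passing. With letter and code as a block, given near the end, the Cxcl10 test in AM passed. The AM test of Cxcl10 passed without AM 6h N160623 (0.0199) and without either iMo library of 0h (0.045 and 0.0447), which enter it only through the shared estimate of the spread.

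**Figure D2:**
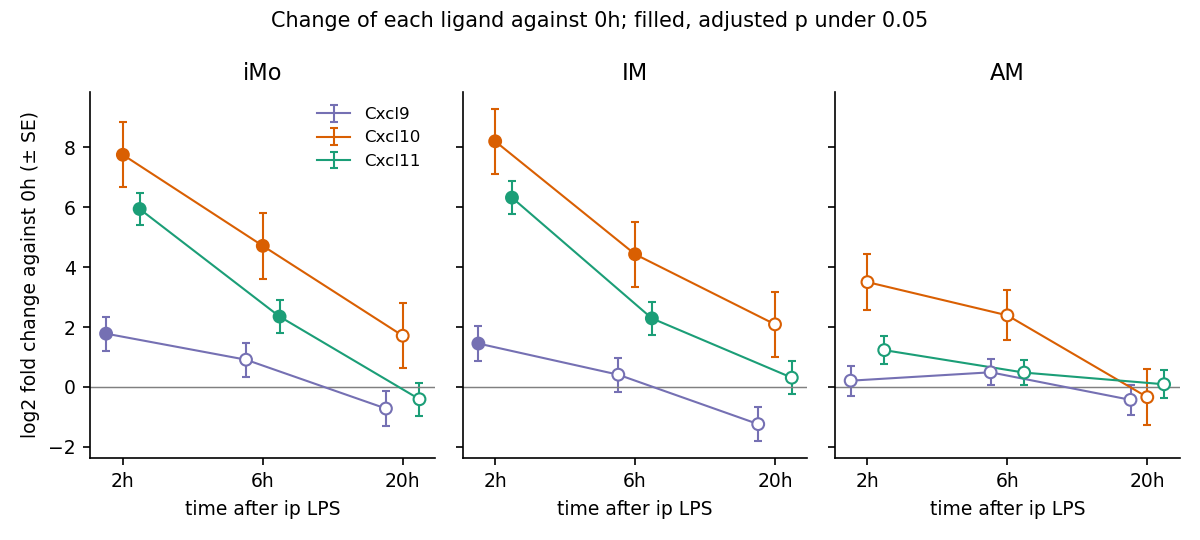
Difference in log2(TPM + 1) from 0h (± SE) of each ligand at 2h, 6h and 20h after ip LPS in iMo, IM and AM; filled points have an adjusted p under 0.05, and times are evenly spaced on the axis. In iMo and IM, Cxcl10 lies between 7.75 and 8.20 at 2h and Cxcl9 between 1.45 and 1.78, whereas no point in AM is filled.

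Levels at 6h, as a share of the 2h mean, are set here beside the share at 0h. In iMo they were 11.3% for Cxcl10, 7.08% for Cxcl11 and 51.0% for Cxcl9, against 0.852%, 0.376% and 27.6% at 0h. In IM they were 8.78% for Cxcl10, 7.2% for Cxcl11 and 52.9% for Cxcl9, against 0.489%, 0.351% and 32.5% at 0h. In AM the share of Cxcl10 was 66.4%, against 7.87% at 0h. It was 50.0% without AM 6h A161219 and 95.2% without AM 6h N160623. The AM libraries disagreed: Cxcl10 was 49.2 TPM at 2h and 3.94 TPM at 6h in N160623, but 39.8 and 40.6 TPM in B161219. Single libraries moved these shares: with 1 library left out, Cxcl10 in IM ran from 2.97% (without IM 6h A161219) to 15.7% (without IM 2h A161219) and Cxcl9 in IM from 18.5% to 93.7% without the same libraries. Cxcl11 in IM was 1.62% without IM 6h A161219 and 12.8% without IM 6h N160623. In iMo without 2h B161219, Cxcl10 was 18.5% and Cxcl11 11.6%, and without iMo 6h B161219 Cxcl11 was 4.21%. At 20h the Cxcl9 share was 11.8% in iMo and 9.89% in IM, below that at 0h, whereas the Cxcl10 share was 1.45% in iMo and 1.3% in IM, above it. Without IM 2h A161219 these were 17.5% for Cxcl9 and 2.32% for Cxcl10 in IM, and without iMo 2h B161219 Cxcl10 was 2.37% in iMo.

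Between 6h and 2h, Cxcl11 was the only ligand called lower in iMo (4.82% of all genes), at -3.60 (SE 0.55, adjusted p 0.000224), while Cxcl10 was -3.04 there (adjusted p 0.0893). In IM both Cxcl11, at -4.03 (adjusted p 0.00019), and Cxcl10, at -3.77 (adjusted p 0.0366), were called lower (2.77% of all genes). The Cxcl11 value in IM was the most negative of the 8937 genes. Cxcl10 in IM lost that call with 0.1 TPM added (adjusted p 0.0632), with no filter (0.106), with weights per library (0.217), in a fit on the 2 groups alone (0.0656), and without IM 2h A161219 (-3.08), IM 2h N160623 (-4.45) or IM 6h N160623 (-2.62). Within code Z, Cxcl10 was -3.04 in iMo, where it was called, and -3.30 in IM. The IM value there sets 1 library of 6h against 1 of 2h, so no call is given for it. Between 20h and 6h only Cxcl11 was called lower, in iMo at -2.76 (adjusted p 0.00617, 1.16% of all genes) and in IM at -1.97 (adjusted p 0.0409, 1.12%). The iMo value sets 2 libraries listed at 0 against 6h and depends on the 1 TPM added. Its call was lost without iMo 6h B161219 (-2.23) or either iMo library of 20h (-2.76 both times). The IM call was lost without IM 6h A161219 (-0.74), IM 20h A161219 (-1.51) or IM 20h B161219 (-2.44), and also, at the same -1.97, without any of 4 libraries of other groups (adjusted p 0.051 to 0.0514), with no filter (0.107) and with a filter of 20 TPM (0.0593). In AM no ligand was called between 6h and 2h (0% of all genes) or between 20h and 6h (0.0336%), and unadjusted p under 0.05 was found for 0 and 1 of them. The 1 was Cxcl10 between 20h and 6h, at -2.73.

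Levels were then compared between cell types at each time. At 2h all 3 ligands were higher in iMo than in AM (13.8% of all genes) and in IM than in AM (12.7%). Cxcl10 was 7.01 higher in iMo (SE 1.09, adjusted p 1.69e-05) and 7.25 in IM (SE 1.09, adjusted p 9.18e-06). Cxcl11 was 5.07 higher in iMo and 5.54 in IM, and Cxcl9 was 2.44 higher in iMo and 2.83 in IM, with adjusted p from 3.31e-08 to 0.00153. With quantile normalization 22.1% of all genes were higher in iMo and 21.7% in IM. No single library removed any of these 6 calls, and within code Z, with 1 library each of IM and AM, Cxcl10 was 7.16 higher in iMo and 8.08 in IM.

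At 6h, 2 of 3 ligands were higher in iMo than in AM (10.5% of all genes) and 3 of 3 in IM than in AM (12%). Cxcl10 was 5.07 higher in iMo and 4.59 in IM. Cxcl11 was 2.22 higher in iMo, a call lost without iMo 6h B161219 (1.70), and 2.26 in IM, a call lost without IM 6h A161219 (1.02). Cxcl9 was 1.30 higher in iMo (adjusted p 0.0655) and 1.51 in IM (adjusted p 0.0273), lost without AM 6h N160623 (1.06) or IM 6h A161219 (0.52). At 20h Cxcl10 alone was called, 4.81 higher in iMo (adjusted p 0.00261, 8.92% of all genes) and 4.98 in IM (adjusted p 0.00156, 11.5%).

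Before LPS, Cxcl10 was 2.76 higher in iMo than in AM (adjusted p 0.0289, 16.2% of all genes) and 2.55 higher in IM than in AM (adjusted p 0.0486). Cxcl9 was 1.59 higher in IM than in AM (adjusted p 0.0186), so 2 of 3 ligands were called there (15% of all genes). These differences rest on the 0h libraries of B171227. Without iMo 0h B171227 the Cxcl10 difference was 0.84, without IM 0h B171227 it was 0.99 for Cxcl10 and 1.04 for Cxcl9, and none was called. The Cxcl10 call was also lost without AM 0h N160623, at 2.35 in iMo and 2.13 in IM, and in IM it was lost without 16 of the 27 libraries in all, so that it lay at the edge of the threshold. The F test of any difference at 0h gave adjusted p 0.0269 for Cxcl10, 0.0378 for Cxcl9 and 0.698 for Cxcl11 (33.5% of all genes passing). At 0h B171227 has no AM library. In A171227, which has all 3 cell types, Cxcl10 was 6.08 TPM in AM, 6.16 TPM in iMo and 6.95 TPM in IM. Cxcl9 was 1.76, 1.69 and 3.94 TPM in the same order. With letter and code as a block, given near the end, the F test at 0h passed for neither Cxcl10 nor Cxcl9.

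Between iMo and IM no ligand was called at 0h (7.06% of all genes), 2h (2.45%), 6h (3.21%) or 20h (1.25%), and none had an unadjusted p under 0.05 in limma. At 2h the difference, iMo minus IM, was -0.24 for Cxcl10 (95% interval -2.49 to 2.01), -0.47 for Cxcl11 (-1.60 to 0.66) and -0.38 for Cxcl9 (-1.57 to 0.80). These intervals are wide, and equal levels are not shown. At 2h the iMo and IM libraries also overlapped in their interstitial macrophage sums, at 639 to 1111.7 TPM in iMo and 429 to 1162.9 TPM in IM, and in their classical monocyte sums, at 8159.3 to 11926.4 TPM in iMo and 5516.1 to 9631.1 TPM in IM. They stood far apart in their neutrophil sums, at 336 to 673 TPM in iMo and 19758.3 to 22409.5 TPM in IM, whose part in the comparison was not tested.

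Whether the responses themselves differed was tested by interaction. At 2h the Cxcl10 response was 4.25 larger in iMo than in AM (SE 1.44, adjusted p 0.0494) and 4.70 larger in IM than in AM (SE 1.44, adjusted p 0.0188). For Cxcl11 the excess was 4.72 in iMo (SE 0.73, adjusted p 0.000208) and 5.09 in IM (SE 0.73, adjusted p 9.97e-05). For Cxcl9 it was 1.56 in iMo (adjusted p 0.176) and 1.24 in IM (adjusted p 0.219). Thus 2 of 3 ligands were called for iMo (4.1% of all genes higher) and 2 of 3 for IM (4.95%). Both Cxcl11 calls held without any 1 library, but Cxcl11 was tested only because it was high in iMo and IM at 2h and 6h. The 1 TPM added shrinks its response most in AM, where it averaged 0.039 TPM at 0h, so the size of the excess depends on it. As ratios of mean TPM at 2h to 0h, Cxcl11 was 38.2 in AM, 266 in iMo and 285 in IM, and these ratios rest on very low 0h means. The Cxcl10 call for iMo was lost without any of 18 of the 27 libraries, with values from 2.33 to 6.17 over all 27, and that for IM without AM 2h B161219 (4.55), IM 0h A171227 (3.14) or IM 2h A161219 (4.01).

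No ligand was called for a response that differed from AM at 6h, in iMo (7.87% of all genes) or IM (7.8%), or at 20h, in iMo (4.14%) or IM (4.3%). Unadjusted p under 0.05 was found for Cxcl11 at 6h in both and for none at 20h. Responses of iMo and IM were not called different for any ligand at 2h (3.7% of all genes), 6h (4.33%) or 20h (3.78%), with none at an unadjusted p under 0.05. Over all times and cell types together, the F test of the difference passed for Cxcl11 (adjusted p 0.000182) and not for Cxcl10 (0.149) or Cxcl9 (0.344), with 25.1% of all genes passing. The Cxcl10 result depends on the model, since with letter and code as a block, given near the end, it passed. Without iMo 0h B171227 the Cxcl10 test passed (0.036).

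Groups were also ordered by mean TPM. Cxcl10 had the order IM 2h (7662.9 ± 4792.2 TPM, SD), iMo 2h (6328.0 ± 3488.5), iMo 6h (714 ± 144), IM 6h (673 ± 630), IM 20h (99.3 ± 14.3) and iMo 20h (91.7 ± 37.3), n = 2 in each. It was followed by iMo 0h (53.9 ± 67.5, n = 2), AM 2h (44.5 ± 6.62, n = 2), IM 0h (37.5 ± 43.2, n = 2), AM 6h (29.6 ± 22.3, n = 3), AM 0h (3.51 ± 2.21, n = 4) and AM 20h (2.3 ± 1.32, n = 2). Only 2 of its 11 steps separated neighbouring groups without overlap, iMo 2h from iMo 6h and IM 6h from IM 20h. For Cxcl11 IM 2h (119.8 ± 59.0 TPM) and iMo 2h (87.7 ± 48.4) led, followed by IM 6h (8.62 ± 9.44), iMo 6h (6.21 ± 3.56) and AM 2h (1.49 ± 0.774), and 3 of 11 steps were free of overlap. For Cxcl9 the order began with IM 2h (20.7 ± 12.7 TPM), iMo 2h (14.4 ± 3.78) and IM 6h (10.9 ± 10.1) and ended with AM 20h (0.776 ± 0.0219), and every one of the 11 steps overlapped.

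The ratio between ligands within a library avoids differences in scaling between libraries. Cxcl10 over Cxcl9 was 330.2 and 516 at 2h in iMo, against 3.64 and 16.3 at 0h. In IM it was 372 and 366 at 2h, against 1.77 and 7.16 at 0h, and in AM 26.0 and 24.0 at 2h, against 1.13 to 3.44 at 0h. In each cell type the 2h ratios lay above all 0h ratios, and the AM ratios at 2h lay below those of iMo and IM. Cxcl10 over Cxcl11 at 2h was 72.3 and 72.1 in iMo, 68.4 and 54.8 in IM, and 19.5 and 52.1 in AM. Cxcl11 exceeded Cxcl9 at 2h in iMo (4.57 and 7.16 times) and IM (5.44 and 6.69 times), and was 0.0385 to 0.226 times Cxcl9 in these cell types at 0h.

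**Figure D3:**
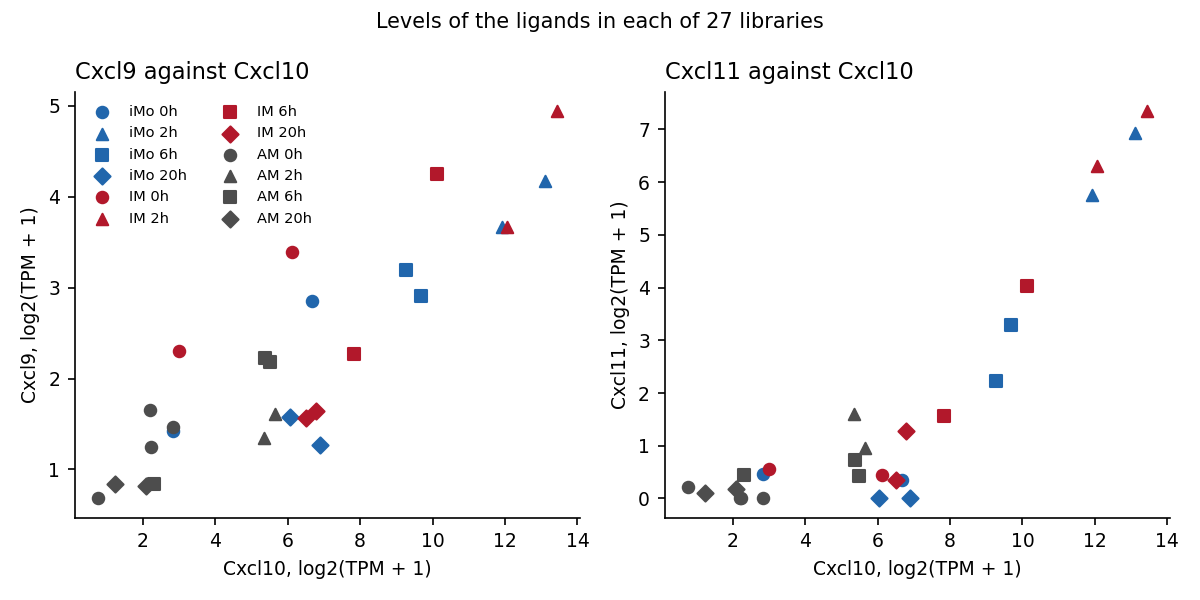
Cxcl9 (left) and Cxcl11 (right) against Cxcl10 in each of the 27 libraries, all as log2(TPM + 1), with colour for cell type and shape for time. The iMo and IM libraries of 2h lie in the upper right of the Cxcl11 panel. AM 2h B161219, with Cxcl11 at 2.04 TPM, lies above IM 6h N160623, at 1.94 TPM, although its Cxcl10 was lower (39.8 against 227 TPM).

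Over the 27 libraries, Pearson's r of log2(TPM + 1) was 0.879 between Cxcl9 and Cxcl10, 0.88 between Cxcl10 and Cxcl11 and 0.835 between Cxcl9 and Cxcl11. These are descriptions, since libraries share groups and cell types. Of 8611 tested genes, with gene models passed over, those most like Cxcl9 were the guanylate-binding protein genes Gbp7 (r = 0.949) and Gbp2 (0.918), Ifit1bl1 of the interferon-induced Ifit family (0.919), the ISG15-conjugating enzyme gene Ube2l6 (0.916) and Il27, a cytokine subunit gene (0.915). Most like Cxcl10 were Rsad2, which encodes the antiviral protein viperin (0.951), Ifit1 (0.947), the chemokine gene Ccl5 (0.943), Nfkbia, which encodes the NF-kB inhibitor alpha (0.943), and the amino acid oxidase gene Il4i1 (0.942). Most like Cxcl11 were Tnfaip6, whose product binds hyaluronan (0.957), the interleukin-2 receptor alpha gene Il2ra (0.955), Slamf1, which encodes a leukocyte surface receptor (0.954), Heatr9 (0.94) and Serpinb2, which encodes a plasminogen activator inhibitor (0.939). The other ligands ranked 45 and 122 for Cxcl9 and 108 and 113 for Cxcl10 on this measure.

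Genes of the pathways upstream and beside the ligands were read from lists, with calls from the same model. These lists were chosen with earlier results of these data known, so their counts are descriptions. Of 11 genes of NF-kB subunits and inhibitors, 8 were called higher at 2h in iMo (median 1.70, against -0.42 over all genes) and 8 in IM (median 2.03, against -0.79), and none lower in either. Over all genes 8.41% were higher and 24% lower in iMo at 2h, and 7.99% higher and 40.8% lower in IM. Tnfaip3, which encodes the NF-kB feedback inhibitor A20, rose by 6.11 in iMo and 5.89 in IM, and Nfkbia by 3.29 in iMo and 3.61 in IM. Nfkbiz, which encodes an atypical inhibitor, rose by 2.13 in iMo and 3.08 in IM. The subunit gene Nfkb1 rose by 2.47 in iMo, and Bcl3 by 2.55 in IM. At 6h the count was 2 higher and 1 lower in iMo, where 5.95% of all genes were higher and 23.1% lower, and 4 higher in IM, where 4.63% were.

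Of 15 tested genes from TLR4 to type I interferon signalling, 6 were higher and 1 lower at 2h in iMo (median 0.66) and likewise 6 and 1 in IM (median 0.81), beside 8.41% of all genes higher and 24% lower in iMo, and 7.99% and 40.8% in IM. The kinase gene Ikbke rose by 4.27 in iMo and 5.31 in IM, and Cd14, the LPS co-receptor, by 3.23 in iMo and 3.47 in IM. Irf7 rose by 2.39 in iMo and 2.98 in IM, and Stat2 by 2.02 in iMo and 2.64 in IM. The 1 lower gene, Ticam2, which encodes the TLR4 adaptor TRAM and was named after its values were seen, fell by 1.22 in iMo and fell by 1.31 in IM. Ifnb1 itself did not pass the filter and was at most 3.93 TPM, in an IM library of 6h.

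Of 8 tested genes of interferon-gamma signalling, 1 was higher and 2 were lower at 2h in iMo (median 0.03), and 2 were higher and 2 lower in IM (median 0.17). Over all genes 8.41% were higher and 24% lower in iMo, and 7.99% and 40.8% in IM. The higher count in iMo and both counts of lower genes were thus near or under the background, and the 2 higher genes in IM are a small count. The genes named next are single values and not a result for the list. The kinase gene Jak2 rose by 2.29 in iMo and 2.60 in IM, and the feedback inhibitor gene Socs1 rose by 2.99 in IM. The receptor gene Ifngr1 fell by 2.64 in iMo and fell by 2.80 in IM, and the transcription factor gene Irf8 fell by 1.31 in iMo and fell by 2.13 in IM. At 20h, 4 of 8 were lower in iMo (14.8% of all genes lower; median -1.48, against -0.31 over all genes), among them Ifngr1 at -2.19, Irf8 at -1.53 and Jak1 at -1.28, and none was called in IM by limma (median -0.65, against -0.09), where 1 had an unadjusted p under 0.05. Ifng was below the filter. It was 1.61 and 3.06 TPM in iMo at 2h, against 0 TPM in both iMo libraries at 0h, and at most 1.33 TPM in IM and AM.

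Among 13 tested interferon-gamma-induced genes, 3 were higher and 1 lower at 2h in iMo (median 1.04), and 8 were higher and 1 lower in IM (median 1.73), beside the 8.41% higher and 24% lower of all genes in iMo, and 7.99% and 40.8% in IM. Gbp5 rose by 2.91 in iMo and 4.52 in IM, and Cd274, which encodes PD-L1, by 3.91 in iMo and 3.15 in IM. Gbp6 rose by 1.31 in iMo and Gbp2 by 2.65 in IM. Ciita, the regulator of MHC class II genes, fell by 1.89 in iMo and fell by 3.63 in IM. At 20h the same list had 1 higher and 6 lower in iMo (7.39% of all genes higher and 14.8% lower; median -1.56, against -0.31 over all genes), among them Gbp3 at -3.02, Gbp2 at -2.63, Irgm1 at -2.07 and Ciita at -2.04. In IM it had 2 lower at 20h (8.39% of all genes lower; median -0.97, against -0.09), Ciita at -4.21 and Gbp3 at -2.46. In the same iMo libraries the classical monocyte sum was 2502.5 to 3282.6 TPM at 20h, against 8880.1 to 13243.5 TPM at 0h, and the neutrophil sum 2877.4 to 2907.1 TPM, against 135 to 216 TPM. Their part in the 20h values was not tested.

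Of 8 other chemokine genes whose products attract lymphocytes, 4 were higher at 2h in iMo (median 1.84; 8.41% of all genes) and 4 were higher and 2 lower in IM (median 1.26; 7.99% of all genes higher and 40.8% lower). Ccl4 rose by 8.10 in iMo and 6.59 in IM, Ccl3 by 6.31 in iMo and 7.24 in IM, and Ccl5 by 6.73 in iMo and 5.96 in IM. Ccl5 was 2196.8 and 5124.0 TPM at 2h in iMo, against 10.5 and 86.4 TPM at 0h, and 4171.3 and 5116.6 TPM at 2h in IM, against 33.3 and 160.5 TPM at 0h. Cxcl16 rose by 3.23 in iMo and Ccl22 by 2.19 in IM. The 2 lower genes in IM, named after their values were seen, were Cxcl13, which fell by 2.06, and Cx3cl1, which fell by 1.06.

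In AM no tested gene of these 5 lists was called by limma at 2h, and the counts at an unadjusted p under 0.05 were 2 for NF-kB, 1 for TLR4 to type I interferon, 3 for the other chemokines and 0 for both interferon-gamma lists. Over all genes 0.134% were called in AM at 2h, and 283 of 8937 had an unadjusted p under 0.05. The largest value was 2.57 for Ccl5 (adjusted p 0.383). At 6h 2 genes were called in AM, where 0.929% of all genes were higher, Ccl5 at 4.27 (adjusted p 0.000503) and Irf7 at 3.44 (adjusted p 0.000392). Ccl5 was 37.2 to 223 TPM in AM at 6h, against 2.37 to 10.8 TPM at 0h.

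**Figure D4:**
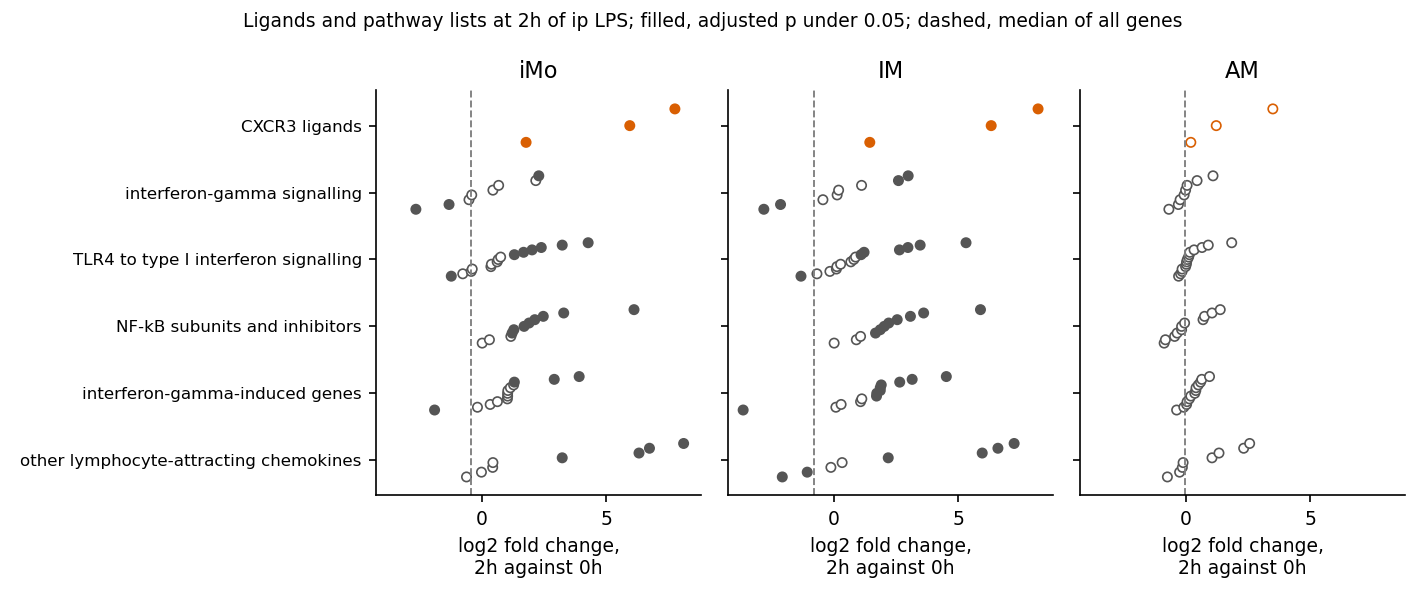
Difference in log2(TPM + 1) at 2h of ip LPS against 0h for the 3 CXCR3 ligands (orange) and each tested gene of 5 pathway lists (grey) in iMo, IM and AM; filled points have an adjusted p under 0.05 and the dashed line is the median of all genes. In iMo and IM the ligands run from 1.45 to 8.20 and the NF-kB list has 8 of 11 filled points, whereas AM has none.

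The receptor side was at low levels. Cxcr3 itself, Ackr3, an atypical receptor that takes up CXCL11, and Dpp4, a protease that trims these chemokines, all missed the filter. Cxcr3 was listed at 0 in every iMo library after ip LPS, against 0.382 and 0.55 TPM at 0h, and was 0 and 0.136 TPM in IM at 2h, against 0.948 and 1.83 TPM at 0h. In IM, Ackr3 was at most 0.094 TPM at 2h, against 1.97 and 7.09 TPM at 0h. Dpp4 was 1.85 and 2.67 TPM at 2h in iMo, against 3.27 and 4.04 TPM at 0h, and 1.46 and 1.73 TPM at 2h in IM, against 3.92 and 4.81 TPM at 0h.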

How the data were processed

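The authors deposited 1 table of TPM, in which each column is a library. Per the submitters' processing notes, STAR, HOMER and mm10 were used, and versions, gene annotation and strand setting are not stated in the sources used. Per the labels' protocols, libraries were made from small numbers of sorted cells. TPM keeps no depth, so precision was judged from replicates, which had Pearson's r of 0.936 to 0.981 within groups.

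Groups were taken from the sample labels. Genes that reached 5 TPM in 2 or more of the 27 libraries were tested on log2(TPM + 1) by 1 linear model over 12 groups (limma 3.58.1 with a trended prior, R 4.3.3), with Benjamini-Hochberg adjustment over 8937 genes and a threshold of 0.05. Tables were handled with Python 3.11.15, pandas 2.3.3 and numpy 2.4.6. The procedure was tested on simulated data.

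The members and gene lists were chosen with earlier results of these data known. By rule, up to 4 called genes of largest absolute change were named per list and contrast, and the 5 tested genes of highest r per ligand. A gene that this rule names in 1 contrast is not reported here. Alternatives changed the added TPM, filter, scaling, weights, covariate, block and libraries.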

Additional observations from a re-analysis of the deposited data

Results flagged for a closer look

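Cxcl11 in AM at 0h stood out because 1 library, N160623, was far from the other 3, at 0.156 TPM against 0 TPM. The rule is set to mark about 5% of groups by chance, but with 3 libraries tied at 0 TPM any value above 0 is marked, so that rate does not apply. It was run only on AM at 0h, the largest group. The level is close to 0.

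The response of Cxcl10 at 2h differed between cell types, being 4.25 larger on the log2 scale in iMo than in AM and 4.70 larger in IM than in AM. The iMo value had an adjusted p of 0.0494 in limma, ran from 2.33 to 6.17 with 1 library left out and lost its call without any of 18 of the 27 libraries. The F test of Cxcl10 over all times and cell types did not pass (adjusted p 0.149), but it passed with letter and code as a block, given below. The response of Cxcl11 differed in the same comparisons, by 4.72 in iMo and 5.09 in IM, and its F test over all times and cell types had an adjusted p of 0.000182 in limma. Cxcl11 was in the tested set only through its high iMo and IM libraries of 2h and 6h. The size of its difference also depends on the 1 TPM added, since Cxcl11 averaged 0.039 TPM in AM at 0h. Both iMo libraries and both IM libraries at 2h lay above all AM libraries for both genes.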

How the results depend on the processing

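Over all times, the F tests of Cxcl9, Cxcl10 and Cxcl11 for a response in iMo and in IM passed under every alternative run, and over all F tests, leave-outs aside, 140 values stayed on their side of the threshold, 9 came to pass it and 8 no longer passed. As adjusted p from limma, the test of Cxcl10 in AM, 0.117, was 0.0371 after rescaling without Rn45s and Lars2, 0.0248 with weights per library and 0.0207 without the pair of 0h libraries of B171227, a choice made after seeing the data, and 0.0199 to 0.262 with 1 library left out. That of Cxcl11 in AM was 0.0457 with 0.1 TPM added. The difference of responses was 0.049 for Cxcl9 with quantile normalization. For Cxcl10 it was 0.0254 with 5 TPM added, 0.0134 without that pair and 0.036 to 0.311 with 1 library left out. The difference at 0h was lost for Cxcl9 with 5 TPM added (0.0911), with no filter (0.0839), without that pair (0.461) and in a range of 0.0164 to 0.239 with 1 library left out. For Cxcl10 it was lost likewise (0.0577, 0.0644 and 0.676, with a range of 0.00198 to 0.0974). The cause was not tested.

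Deviations of same-time libraries with the same letter and code correlated from -0.14 to 0.507 over 16 pairs, 8 of them over 0.1. In groups of 2 libraries the deviations mirror each other, so these pairs are not all separate values and the counts are a weak guide. Not every pair passed 0.1, so the labels were not taken to pair libraries, although 13 of 15 pairs of N160623 libraries did (0.061 to 0.618), a hint from the data. With the replicate block, the adjusted p was 0.00564 for Cxcl10 in AM, 0.00229 for its difference of responses, and 0.438 for Cxcl9 and 0.96 for Cxcl10 at 0h, where Cxcl10 in IM against AM turned to -0.01. Genes called at 2h against 0h numbered 218 in iMo with the block and 594 with the title code, against 2897 without them, and 677 and 1465 in IM, against 4356.

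Scaling moved the median of all genes at 2h. Relative to that median, Cxcl10 at 2h was 8.17 to 8.23 in iMo and 7.99 to 8.99 in IM over 3 scalings, and Cxcl9 2.01 to 2.20 and 2.21 to 2.24. TPM cannot show absolute amounts, and 2 libraries a group limit every comparison. No value exists for Cxcl9 under the filter of 20 TPM, or for comparisons with 0h within code Z.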

Other observations

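When likeness was measured over the 12 group means in place of the 27 libraries, Gbp7 was again the gene most like Cxcl9 (r = 0.98), followed by Trim56 (0.969) and Il27 (0.962). Most like Cxcl10 were Ptpn1 (0.978), Gk (0.978) and Nfkbia (0.97), and most like Cxcl11 were Cd276 (0.986), Sipa1l1 (0.976) and Heatr9 (0.972). Of the 5 genes most like each ligand over libraries, Gbp7 and Il27 for Cxcl9, Nfkbia for Cxcl10, and Heatr9, Il2ra (0.971) and Tnfaip6 (0.967) for Cxcl11 were also among the 5 over group means.

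Art3, the plus-strand gene over Cxcl10 and Cxcl11, was 1.38 and 5.75 TPM at 2h in iMo and 15.6 and 4.37 TPM at 2h in IM. In AM it was at most 0.741 TPM in any library.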
